A study of Homo sapiens with 6 samples.

Results

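The AP-1 factor genes are the genes for the JUN proteins (JUN, JUNB, JUND), the FOS proteins (FOS, FOSB, FOSL1, FOSL2) and the ATF3-type proteins (ATF3, BATF3). These 9 genes, of 19785 protein-coding genes with an annotated start site, were followed in 4 lists of Myc-bound regions. A Myc peak was counted for a gene when its summit, the base with the most overlapping reads, lay no more than 10 kb from a start of transcription (the TSS) of that gene. The genes were listed by name, with earlier results of these data known. They collected 80 peaks in the 4 lists, which merged into 41 sites of 33436 sites in all.

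The libraries were made by chromatin immunoprecipitation with a Myc antibody and sequencing (ChIP-seq) from MDA-MB-231, a human triple-negative breast cancer cell line. The groups were parental cells, labelled Parental231, and TKO, a derivative of the line without TXNIP, the thioredoxin-interacting protein, made with CRISPR/Cas9. Both were grown in the same serum-containing medium with no further treatment, and each had 2 Myc libraries. Knockout clones were isolated from single cells, so a difference between clones and the loss of TXNIP cannot be told apart. The study calls the libraries of a group biological replicates and does not say how the cultures were kept apart. Each group also had 1 input library, which entered only as the control of the peak calls, and peak lists do not show the state of TXNIP itself.

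AP-1 is a dimer of basic leucine zipper (bZIP) proteins, formed by a JUN protein with another JUN protein, a FOS protein or an ATF-type protein. It binds the AP-1 motif TGACTCA, and dimers that hold ATF proteins also bind the cyclic-AMP response element (CRE), TGACGTCA. FOS, FOSB, JUN, JUNB and ATF3 are early-response genes, which growth factors and stress switch on within minutes. FOSL1 codes for FRA-1, the FOS-type protein best known from invasive and triple-negative breast cancer cells. Myc is a basic helix-loop-helix protein that binds the E-box CACGTG as a dimer with MAX, and the comparison asks where Myc was bound at the genes of another factor with and without TXNIP.

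TKO had more Myc peaks than parental cells at 7 of the 9 genes, in each TKO library against each parental library, and 43.0% of all protein-coding genes had this pattern. Together the 9 genes held 4 and 5 peaks in the parental libraries, and in TKO they held 33 and 38. The 2 groups did not overlap. JUNB had the most, with 9 and 8 peaks in TKO, followed by FOSL1 and JUND, and FOS had no peak in 3 of the 4 libraries. FOSL2 was the gene with the most peaks in parental cells and the one with the smallest ratio between the groups.

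The lists are of very unequal length, and this touches every count. The parental lists held 3720 and 5719 peaks, and the TKO lists 27213 and 25887. Recovered depth went the other way, with 26.4 and 22.2 M reads in parental cells against 19.9 and 13.0 M in TKO. The stretch to which each read was extended was shorter in parental cells (140 and 151 bp) than in TKO (182 and 201 bp). The part of these differences in the results was not tested. Peak numbers with every list cut to equal length are given for each gene, and summit reads scaled to equal extension for the sites with peaks in both groups.

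The stretches below are shown because the results turn on them. They were read from GRCh37, the reference build that corresponds to hg19, on the strand of the gene named, 5′ to 3′. The first 5 are the 101 bases around the summit of a leading peak without any of the motifs searched, taken from TKO replicate 1. Capitals in the others mark an AP-1 motif (TGACTCA or its complement TGAGTCA), a CRE (TGACGTCA) or an E-box (CACGTG). The JUNB promoter stretch is chr19:12902171-12902271 on the plus strand, and the FOSL2 stretch is chr2:28613526-28613626 on the plus strand, in an intron of the noncoding FOSL2-AS1. The FOSL1 stretch is chr11:65670754-65670854 on the minus strand, between genes. The JUN stretch is chr1:59250052-59250152 on the minus strand, in an exon of the noncoding gene ENSG00000290013. The ATF3 stretch is chr1:212781996-212782096 on the plus strand, in an intron of the longer ATF3 transcripts just before the start of shorter ones.
JUNB promoter: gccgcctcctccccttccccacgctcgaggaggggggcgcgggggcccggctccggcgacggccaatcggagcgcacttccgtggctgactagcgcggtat
FOSL2 upstream: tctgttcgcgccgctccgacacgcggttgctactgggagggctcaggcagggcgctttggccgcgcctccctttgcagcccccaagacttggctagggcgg
FOSL1 upstream: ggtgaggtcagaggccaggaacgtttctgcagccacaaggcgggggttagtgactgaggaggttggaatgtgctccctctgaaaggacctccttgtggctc
JUN upstream: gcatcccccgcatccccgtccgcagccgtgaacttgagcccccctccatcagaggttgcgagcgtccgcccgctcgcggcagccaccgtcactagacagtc
ATF3 promoter: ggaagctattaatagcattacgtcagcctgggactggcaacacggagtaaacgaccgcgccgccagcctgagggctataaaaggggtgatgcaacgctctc

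Examples of the AP-1 and CRE motifs under Myc peaks of the same genes are shown next, because they are places where a gene for an AP-1 protein carries the letters that AP-1 binds. The JUNB distal stretch is chr19:12893828-12893928 on the plus strand, between genes. The FOSL1 stretch is chr11:65666827-65666962 on the minus strand, in an intron of FOSL1, and holds both an E-box and an AP-1 motif. The ATF3 stretch is chr1:212732310-212732423 on the plus strand, in an exon of the noncoding RP11-61J19.4, and holds an E-box, an AP-1 motif and a CRE. The FOSL2 motif is at chr2:28615729-28615735, in the untranslated leader of FOSL2, and is shown with 10 bases on either side.
JUNB distal AP-1: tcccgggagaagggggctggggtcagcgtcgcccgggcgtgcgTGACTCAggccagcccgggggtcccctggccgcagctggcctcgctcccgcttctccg
FOSL1 intron: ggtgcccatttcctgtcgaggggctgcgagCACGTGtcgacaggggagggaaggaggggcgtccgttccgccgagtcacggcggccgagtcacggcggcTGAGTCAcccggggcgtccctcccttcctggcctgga
ATF3 far upstream: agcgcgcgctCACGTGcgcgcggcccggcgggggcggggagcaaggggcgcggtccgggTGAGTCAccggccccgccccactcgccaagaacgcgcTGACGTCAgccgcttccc
FOSL2 leader AP-1: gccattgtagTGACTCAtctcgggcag

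Examples of E-boxes within 50 bp of a summit are shown last. The JUNB coding stretch is chr19:12902989-12903089, on the plus strand. The BATF3 stretch is chr1:212873383-212873483 and the JUND stretch chr19:18393713-18393813, both on the minus strand and between genes. The JUN motif is at chr1:59248760-59248765, in the leader of 2 annotated JUN transcripts and in the coding sequence of another that starts translation farther upstream, and is shown with 10 bases on either side.
JUNB coding E-box: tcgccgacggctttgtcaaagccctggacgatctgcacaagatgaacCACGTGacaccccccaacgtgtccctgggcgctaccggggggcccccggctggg
BATF3 upstream E-box: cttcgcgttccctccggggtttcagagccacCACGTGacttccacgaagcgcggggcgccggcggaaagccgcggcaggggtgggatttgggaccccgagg
JUND E-box: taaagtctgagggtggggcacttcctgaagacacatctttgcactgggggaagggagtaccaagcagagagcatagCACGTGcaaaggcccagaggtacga
JUN exon E-box: aaactaacctCACGTGaagtgacgga

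The mean number of peaks at the 9 genes was 4.5 ± 0.707 (SD, n = 2) in parental cells and 35.5 ± 3.54 (SD, n = 2) in TKO, a ratio of 7.89. The same ratio over all protein-coding genes was 5.41. The exact two-sided permutation test of the 4 library totals gave p = 0.333, which is the smallest p that 2 libraries against 2 can give. With every list shortened to its 3720 peaks of highest fold, the 9 genes held 4 and 5 peaks in parental cells against 6 and 7 in TKO, a ratio of 1.44, against 1.21 over all protein-coding genes. Most of the gap in number was thus among TKO peaks of lower fold.

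**Figure D1:**
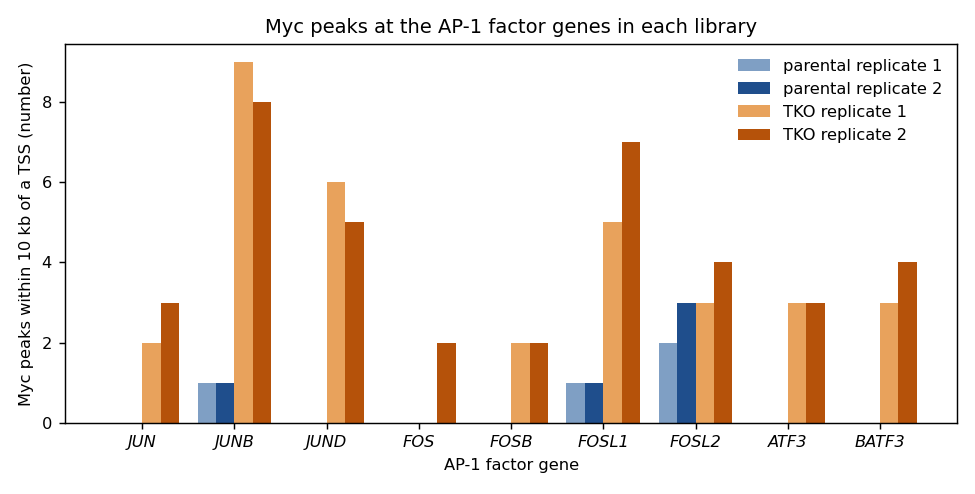
Number of Myc peaks with a summit within 10 kb of a TSS (y axis) of each AP-1 factor gene (x axis) in each of the 4 libraries (bars). The bars of TKO are above those of parental cells in both replicates at 7 genes; at FOSL2 TKO replicate 1 and parental replicate 2 both have 3, and FOS has bars in TKO replicate 2 alone.

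A peak was present at 3 of the 9 genes in parental replicate 1, where 15.9% of all protein-coding genes had one, and at 3 in parental replicate 2, where 18.4% of all genes did. Both times the genes were JUNB, FOSL1 and FOSL2. In TKO replicate 1, 8 genes had a peak, against 59.0% of all genes, and in TKO replicate 2 all 9 did, against 59.8%. JUNB, FOSL1 and FOSL2 were the 3 genes with a peak in all 4 libraries, which 12.6% of all genes had. A peak in each TKO library with none in parental cells was found at 5 of the 9 genes (JUN, JUND, FOSB, ATF3 and BATF3), and 33.7% of all genes had this pattern. Together with JUNB and FOSL1 these are the 7 genes with more peaks in each TKO library than in each parental library, against 43.0% of all genes. At equal list length 1 gene, ATF3, kept the former pattern and 1, ATF3 again, the latter, where 2.95% and 3.30% of all genes did.

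Among the JUN genes, JUNB stood out by number. JUNB (ENSG00000171223.6, chromosome 19, plus strand, start site at base 12902300) had 1 peak in each parental library, 9 in TKO replicate 1 and 8 in TKO replicate 2. Of all protein-coding genes 26, JUNB among them, had at least 8 peaks in both TKO libraries, which is 0.131%. The JUNB peaks formed 9 sites, of which 1 was called in all 4 libraries, 7 in both TKO libraries and neither parental library, and 1 in TKO replicate 1 alone. JUNB codes for a JUN protein that can hold back the activity of JUN itself.

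The site called in all 4 libraries was the JUNB promoter. Its summits lay 158 and 76 bp upstream of the start site in the parental libraries, and 79 and 122 bp upstream in TKO replicates 1 and 2. Summit reads are given as RPM, the whole reads at the summit for each M reads of library depth, both recovered from the fold and p of the lists. The JUNB promoter had 1.29 and 1.49 RPM in the parental libraries and 2.06 and 2.76 RPM in TKO. Both TKO values were above both parental values, with a ratio of 1.74. A ratio of mean RPM above 1 was found at 99.6% of all 2631 sites called in all 4 libraries. Longer extension raises the reads at a summit, and scaled to the shortest extension the ratio was 1.31. The fold of the peak, which is set against the local input background, was 4.91 and 8.13 in the parental libraries and 5.63 and 7.89 in TKO. The parental values lay on either side of both TKO values, and the ratio of the mean folds was 1.04. The background at this site was also higher in TKO, at 0.324 and 0.283 RPM against 0.226 and 0.143, with 1 input library for each group.

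The other JUNB summits of TKO lay on both sides of the promoter, as the plot of summit positions shows. Peaks in the JUNB coding sequence 1141 and 1321 bp downstream of the start had 1.75 and 1.53 RPM. A weaker peak in the same exon, 739 bp downstream in TKO replicate 1 and 655 bp in TKO replicate 2, had 0.802 and 1.23 RPM, and in TKO replicate 1 its summit fell on the E-box of the coding stretch. The peaks farthest upstream, 8618 and 8422 bp from the JUNB start, were nearer to the start site of HOOK2 and are the ones with the printed JUNB distal AP-1 motif, 4 bp from the summit of TKO replicate 2.

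At equal list length JUNB kept its promoter peak in each parental library and had no peak in TKO replicate 2. In TKO replicate 1 it kept 1 peak, which was not the promoter peak, so that TKO no longer had more. The promoter was not the JUNB peak of highest fold in either TKO library. The genes most like JUNB over the 4 libraries were MNT, with the same 4 numbers, and, first by symbol of those that came next, RARA and RPL23A, each with 1 peak fewer in 1 library. MNT codes for a MAX partner that represses E-box genes.

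JUND, the JUN gene that most cell types express steadily, had no peak in parental cells, 6 in TKO replicate 1 and 5 in TKO replicate 2. It is ENSG00000130522.6, on the minus strand of chromosome 19 with its start at base 18392432. At least 5 peaks in both TKO libraries were found at 232 protein-coding genes, 1.17%. Of its 6 sites, 5 were called in both TKO libraries. The site with the most reads in TKO replicate 1 lay 2058 bp downstream of the start, with 1.91 RPM, and the same site had 1.61 in TKO replicate 2, 2055 bp downstream. Upstream, peaks at 574 and 612 bp had 1.35 and 1.99 RPM. JUND had no peak in any library at equal list length.

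JUN, the partner that gave AP-1 its best-known dimer, had no peak in parental cells, 2 in TKO replicate 1 and 3 in TKO replicate 2. It is ENSG00000177606.9 on the minus strand of chromosome 1, with its start at base 59249719. At least 2 peaks in both TKO libraries were found at 21.4% of all genes, so such a number was common. The leading JUN peak had its summit 383 bp upstream in TKO replicate 1, in the stretch printed above, with a fold of 11.2 and 2.16 RPM. The peak of TKO replicate 2 in the same site lay 224 bp upstream, with a fold of 5.12 and 1.76 RPM. Both replicates also had a peak about the same distance farther up, at 1203 and 1177 bp, with 1.40 and 1.38 RPM. The third peak of TKO replicate 2 was in the JUN exon, 944 bp downstream of the start, with 1.23 RPM and the printed E-box 12 bp from its summit. With lists of equal length, JUN had 1 peak in TKO replicate 1 and none in the other 3 libraries.

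**Figure D2:**
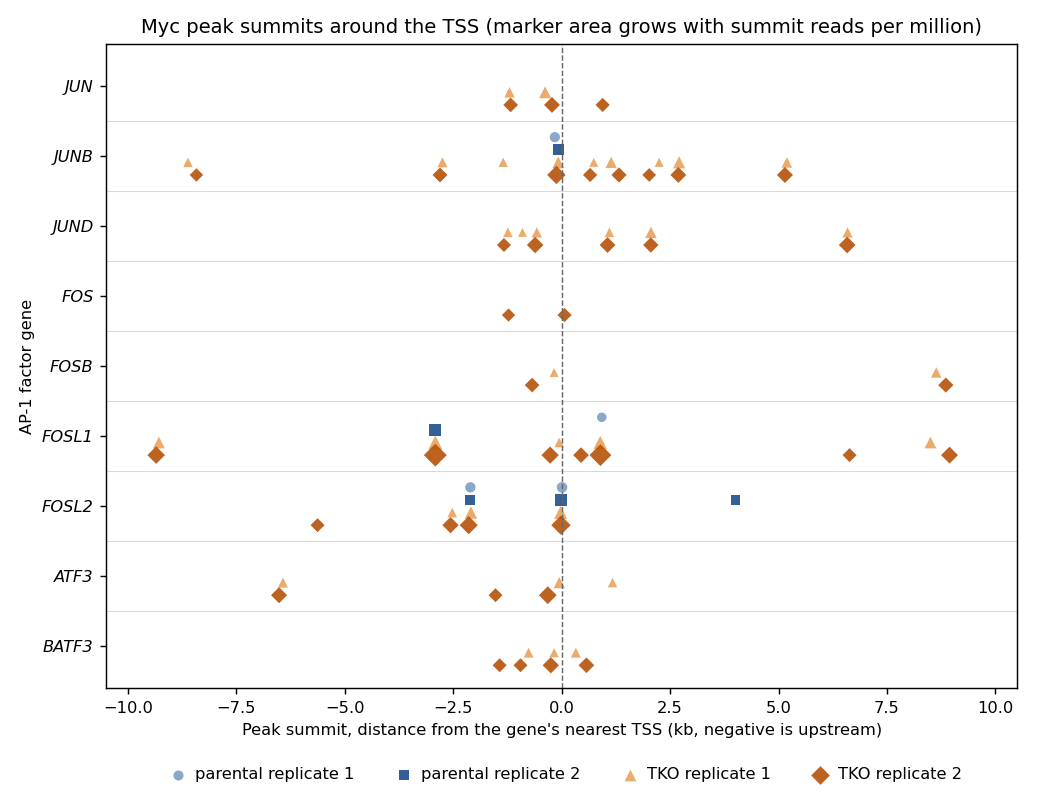
Position of every Myc peak summit around each AP-1 factor gene, as the distance in kb from the gene's nearest TSS (x axis, upstream is negative), with 1 lane per library within each gene (y axis) and a marker area that grows with the summit RPM. TKO summits (triangles and diamonds) of the 2 replicates fall close to each other at most sites, and parental summits (circles and squares) appear at JUNB, FOSL1 and FOSL2 alone.

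The FOS genes held the sites with the most Myc reads. FOSL1 and FOSL2 had peaks in both parental libraries, and FOS and FOSB in neither. The FOS genes together had 3 and 4 peaks in parental cells against 10 and 15 in TKO, a ratio of 3.57, where the JUN genes had 1 and 1 against 17 and 16, a ratio of 16.5. ATF3 and BATF3 together had none in parental cells against 6 and 7 in TKO. With lists of equal length, the gap between the families was gone for JUN and FOS: the FOS genes had 3 and 4 peaks against 3 and 4, the JUN genes 1 and 1 against 2 and 0, each a ratio of 1, and ATF3 with BATF3 had none against 1 and 3.

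FOSL1 (ENSG00000175592.9, minus strand of chromosome 11, start sites at bases 65667859 and 65667890) had 1 peak in each parental library, 5 in TKO replicate 1 and 7 in TKO replicate 2. The 2 parental peaks were not at the same place. Parental replicate 1 had its peak in an intron, 923 bp downstream of the start, and parental replicate 2 had its peak 2918 bp upstream. Both TKO libraries had both sites, with summits at 889 and 893 bp downstream and at 2914 bp upstream.

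At the FOSL1 intron, summit reads were 0.984 RPM in parental replicate 1 (95% exact Poisson interval 0.643 to 1.44), 3.06 in TKO replicate 1 (2.34 to 3.93) and 4.22 in TKO replicate 2 (3.18 to 5.49). The site was not called in parental replicate 2. Both TKO intervals were above that of parental replicate 1, and the intervals cover counting error only. Scaled to the shortest extension the TKO values were 2.35 (1.80 to 3.02) and 2.94 RPM (2.21 to 3.82), still above it. Fold was 5.06 in parental replicate 1 and 11.6 and 13.6 in TKO, which put the site at the 39.7th percentile of its own list in parental replicate 1 and at the 93.5th and 96.3rd in TKO. The E-box of the printed FOSL1 intron stretch lies 6 bp from the summit of parental replicate 1 and within 50 bp of the summit in all 3 libraries with a peak. The AP-1 motif in the same stretch lies 76 bp from the nearest summit.

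At the site 2914 bp upstream of FOSL1, summit reads were 1.89 RPM in parental replicate 2 (95% exact Poisson interval 1.36 to 2.56), 3.31 in TKO replicate 1 (2.56 to 4.21) and 4.76 in TKO replicate 2 (3.65 to 6.10). The interval of TKO replicate 1 began where that of parental replicate 2 ended, and that of TKO replicate 2 was higher. Scaled to the shortest extension the values were 1.76 RPM in parental replicate 2 (1.26 to 2.37), 2.55 in TKO replicate 1 (1.97 to 3.24) and 3.31 in TKO replicate 2 (2.54 to 4.25), so that the intervals of TKO replicate 1 and parental replicate 2 overlapped. These were the highest summit reads among the 9 genes in each of these 3 libraries, level in parental replicate 2 with the FOSL2 start site. The site holds none of the 3 motifs. Local background was also high here, at 0.293, 0.383 and 0.423 RPM, so its fold, 7.76 and 9.67 in TKO, was below that of the intron.

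The other FOSL1 peaks belong in part to the neighbours. Peaks 8502 and 8942 bp downstream of the FOSL1 start were nearer to CCDC85B, and peaks 9287 and 9350 bp upstream were nearer to C11orf68. The promoter itself had summits 58 and 267 bp upstream in TKO, with 1.00 and 2.30 RPM, and an AP-1 motif in the FOSL1 leader 91 bp from the nearer one. At equal list length FOSL1 had 1 peak in each parental library, 1 in TKO replicate 1 and 2 in TKO replicate 2.

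FOSL2, which codes for FRA-2, had 2 and 3 peaks in the parental libraries and 3 and 4 in the TKO libraries, so the groups touched at 3. It is ENSG00000075426.12 on the plus strand of chromosome 2, with start sites between bases 28615669 and 28615725. It held 2 of the 3 sites of the 9 genes that were called in all 4 libraries. At the start site itself, with summits within 26 bp of it in every library, the parental libraries had 1.48 and 1.89 RPM and TKO had 2.76 and 3.14, a ratio of 1.75. At the site farther upstream, the printed FOSL2 upstream stretch, the parental libraries had 1.36 and 1.35 RPM and TKO had 2.36 and 2.61, a ratio of 1.83. At both sites each TKO value was above each parental value, and 99.6% of all 2631 sites called in all 4 libraries had a ratio above 1. Scaled to the shortest extension the ratios were 1.33 and 1.39.

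Fold and reads differed in size at FOSL2. At the start site the fold was 4.81 and 5.36 in parental cells against 15.1 and 14.1 in TKO, so the mean fold was 2.87 times as high while the mean RPM was 1.75 times as high. The local background there was 0.271 and 0.316 RPM in parental cells against 0.136 and 0.151 in TKO, a ratio of 0.489. Each group had 1 input library, so the 2 background values of a group are not replicates. The upstream site was alike, with a background ratio of 0.671 and a fold ratio of 2.30. Over all 2631 sites called in all 4 libraries the median background ratio was 1.24 and the median fold ratio 1.84. The start site of FOSL2 was the strongest of all the peaks at the 9 genes by fold in both TKO libraries, at the 97.0th and 96.8th percentile of their lists.

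FOSL2 also had the one site of the 9 genes that was called in a parental library and in no TKO library, in an intron 4008 bp downstream of the start, with 0.901 RPM in parental replicate 2. A peak beside the upstream site, at 2523 and 2564 bp, was called in both TKO libraries and neither parental library, with 1.05 and 1.92 RPM. The AP-1 motif in the FOSL2 leader lies 21 bp from the summit of parental replicate 2 at the start site. At equal list length FOSL2 had 2 and 3 peaks in parental cells and 2 in each TKO library, so that the direction of its difference turned.

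**Figure D3:**
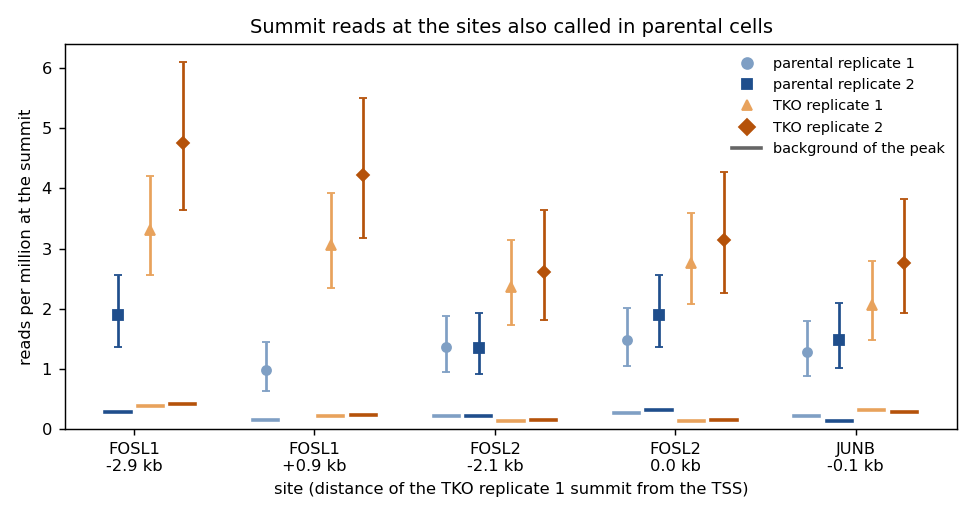
RPM at the summit (y axis) of the 5 sites of AP-1 factor genes that were called in both TKO libraries and at least 1 parental library (x axis, with the distance of the TKO replicate 1 summit from the TSS), with exact Poisson 95% intervals as error bars and the local background of each peak as a short line. Each TKO point is above the parental points of its site, and the background lines of TKO are the lower ones at both FOSL2 sites. Of all 2631 sites called in all 4 libraries, 99.6% had a higher mean RPM in TKO. Each group had 1 input library, so the background lines of a group are not replicates.

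FOSB and FOS carried little. FOSB (ENSG00000125740.15, chromosome 19, plus strand) had no peak in parental cells and 2 in each TKO library. One of these, 8636 and 8857 bp downstream of a FOSB start, was 279 and 58 bp from a start site of ERCC1, the neighbouring DNA repair gene. The other was at a different place in each replicate, and the 2 peaks did not overlap. In TKO replicate 1 its summit was at base 45971078, 175 bp upstream of the first FOSB start, with 0.752 RPM. In TKO replicate 2 it was at base 45972452, with 1.38 RPM, past that start and 682 bp upstream of a later one. With peaks given to the gene of the nearest start site alone, FOSB kept the peaks near its own start sites. Neither FOSB nor FOS had a peak in any library at equal list length. FOS (ENSG00000170345.10, chromosome 14, plus strand) had peaks in TKO replicate 2 alone, with a summit in its leader 66 bp from the start at 1.23 RPM and another 1226 bp upstream at 0.920. The lowest level at which a peak could be called at the genome background was 0.401 RPM in TKO replicate 1, and no FOS peak was listed there. This level is higher where the local background is higher, and the list gives no value for FOS in that library.

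ATF3, a stress-induced gene whose protein pairs with JUN proteins, had 3 peaks in each TKO library and none in parental cells. It is ENSG00000162772.18 on the plus strand of chromosome 1. Its start sites lie far apart, between bases 212738676 and 212788520, so 46419 bp were counted for ATF3 against 20001 bp for a gene with 1 start site. The leading ATF3 peak lay just before the start of the shorter transcripts, 57 bp upstream in TKO replicate 1 and 321 bp upstream in TKO replicate 2. Its fold was 10.3 and 10.6, with 1.80 and 2.45 RPM. A further site upstream of the first ATF3 start, at 6427 and 6517 bp, had 1.25 and 1.84 RPM and holds the printed stretch with an E-box, an AP-1 motif and a CRE. Its summits lie 74 bp or more from any of these.

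This ATF3 site was the one site of the 9 genes with all 3 motifs in its peak. In TKO replicate 1, 10 of 16402 peaks within 10 kb of a TSS, 0.0610%, held all 3 anywhere in the peak, and the ATF3 peak was 1 of these. In TKO replicate 2 the ATF3 peak held the E-box within its borders, and neither the AP-1 motif nor the CRE. At equal list length ATF3 still had 1 and 2 peaks in TKO and none in parental cells.

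BATF3, a small bZIP protein without an activation domain that is best known from dendritic cells, had 3 peaks in TKO replicate 1, 4 in TKO replicate 2 and none in parental cells. It is ENSG00000123685.9 on the minus strand of chromosome 1, with its start at base 212873182. All its peaks lay within 1431 bp of the start. The peak with the most reads was 251 bp upstream in TKO replicate 2, with 1.92 RPM and the printed E-box 17 bp from the summit. TKO replicate 1 had a weaker peak 174 bp upstream, with 0.852 RPM, and another 763 bp upstream with 1.15 RPM and an E-box of its own 46 bp from the summit. A site in an intron, 327 and 570 bp downstream, had 1.15 and 1.69 RPM. BATF3 had 1 peak, in TKO replicate 2, when the lists were of equal length.

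Over the 9 genes, the summits of both TKO replicates lay close together at most sites that they shared. Of the 41 sites, 22 were called in both TKO libraries and no parental library, 13 in 1 TKO library alone, 3 in all 4 libraries, 2 in both TKO libraries and 1 parental library, and 1 in 1 parental library alone. Of all sites within 10 kb of a TSS, 45.2% were of the first of these classes and 9.54% were called in all 4 libraries, against 53.7% and 7.32% of the sites of the 9 genes. At the 27 sites called in both TKO libraries the summits of the 2 replicates were a median of 63 bp apart, and 17 were within 100 bp. RPM was higher in TKO replicate 2 at 22 of the 27, with a median ratio of 1.34, against 1.22 at all 18611 such sites.

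At the 22 sites called in both TKO libraries and no parental library, the mean of the 2 TKO libraries ran from 0.938 to 2.22 RPM, with a median of 1.60. The parental reads at these sites were not analysed here, since the lists hold called peaks alone.

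The 3 sites called in all 4 libraries can be set beside the rest of their kind. Their ratios of RPM, TKO over parental, were 1.74, 1.75 and 1.83. The median ratio over all 2631 such sites was 2.40, with quartiles at 2.04 and 2.76. Each of the 3 was thus below the lower quartile, with 10.3%, 11.0% and 14.1% of the sites below it. The exact permutation test of each site's 4 values gave p = 0.333, the smallest p possible. The ratio of the median over the 3 sites was 1.80, with the same exact p = 0.333.

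Many of the peaks at the 9 genes lay away from the start of a gene. In TKO replicate 1, 15 of 33 (45.5%) had a summit within 1 kb of some protein-coding TSS, against 72.7% of all peaks within 10 kb of a TSS, and in TKO replicate 2 it was 18 of 38 (47.4%) against 72.6%. These shares were not tested against each other. For 27 of 33 and 32 of 38 peaks the nearest protein-coding TSS was that of the AP-1 factor gene itself. The peaks were of middling strength, with a median percentile by fold of 52.9 and 49.0 within their own lists. Their median width was 428 and 374 bp, against 330 and 344 bp over all peaks.

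Few summits of these peaks had an AP-1 motif. It was within 50 bp of the summit at 2 of 33 peaks in TKO replicate 1 (6.06%, exact Clopper-Pearson 95% interval 0.743% to 20.2%) and at 2 of 38 in TKO replicate 2 (5.26%, 0.644% to 17.7%). Among all peaks within 10 kb of a TSS the share was 4.43% and 3.64%, and among peaks farther away 15.1% and 12.0%. The intervals at the 9 genes hold both of these levels, so at this number of peaks no difference from either was detectable. In windows of the same length 1 kb to either side of all these peaks near a TSS it was 1.36% and 1.38%. In parental cells the motif was at 0 of 4 peaks, which allows a share of up to 60.2%, and at 1 of 5. No peak at the 9 genes had a CRE within 50 bp, which allows up to 10.6% of the 33 and 9.25% of the 38 TKO peaks, and 0.463% and 0.519% of the TKO peaks within 10 kb of a TSS had one. Among the sites with an AP-1 motif at the summit were that of JUNB far from the start and the FOSL2 start site.

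The E-box was at 3 of 33 summits in TKO replicate 1 (9.09%, exact Clopper-Pearson 95% interval 1.92% to 24.3%) and 5 of 38 in TKO replicate 2 (13.2%, 4.41% to 28.1%). Among all peaks within 10 kb of a TSS it was at 8.72% and 7.48%, which these intervals include, and in windows of the same length 1 kb to either side at 1.57% and 1.53%. In parental cells it was at 1 of 4 summits, the FOSL1 intron, and 0 of 5, which allows a share of up to 52.2%. The E-boxes near summits fell in 6 sites at 5 genes, FOSL1, BATF3, JUNB, JUND and JUN. FOSL1 was the only one of these genes where such a peak was called in a parental library.

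**Figure D4:**
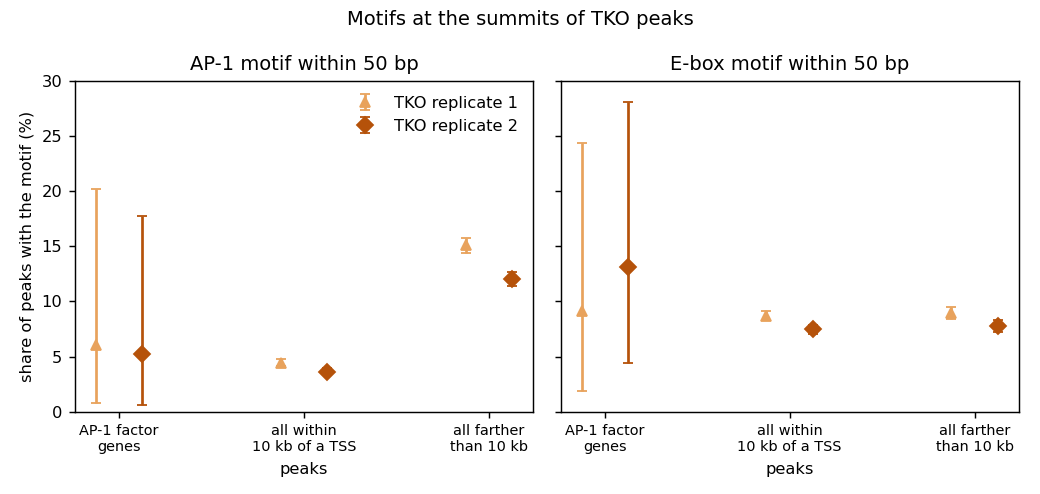
Share of TKO peaks with an AP-1 motif (left) or an E-box (right) within 50 bp of the summit, in percent (y axis), at the AP-1 factor genes, at all peaks within 10 kb of a TSS and at all peaks farther away (x axis), with exact Clopper-Pearson 95% intervals as error bars. The wide intervals of the AP-1 factor genes hold the shares of both other sets, and the AP-1 motif is more frequent in the peaks farther away.

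Other genes of the same pathways, taken as fixed lists, also had more Myc peaks in TKO, as did protein-coding genes at large, with a ratio of 5.41 and 43.0% of genes higher in each TKO than in each parental library. The 18 other bZIP partners had 5 and 4 peaks in parental cells and 31 in each TKO library, a ratio of 6.89, and 12 of the 18 had more peaks in each TKO than in each parental library. The most were at MAFK, with 0 and 0 against 3 and 6, NFE2L2, the regulator of the antioxidant response, with 2 and 2 against 4 and 5, and MAFG, with 0 and 0 against 4 and 2. The 18 kinases and serum response factor (SRF) partners that lie upstream of FOS and JUN had 3 and 3 against 28 and 25, a ratio of 8.83, with 12 of 18 higher. SRF, which switches on FOS after serum, had 0 and 0 against 5 and 4, its partner ELK1 0 and 0 against 2 and 3, and the kinase gene MAP2K2 1 and 1 against 3 and 2. With lists of equal length, 0 of 18 genes in either list had more peaks in each TKO library, where 3.30% of all genes did, and the totals were 5 and 1 against 6 and 4 for the bZIP partners and 3 and 1 against 5 and 4 for the kinases and SRF partners.

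The 12 other immediate early genes had 6 and 8 peaks in parental cells against 33 and 34 in TKO, a ratio of 4.79, with 8 of 12 higher in each TKO library. IER2 had 2 and 2 against 6 and 7, ZFP36, whose protein shortens the life of inflammatory messenger RNAs, 0 and 0 against 6 and 6, and IER3 3 and 3 against 4 and 6. The 15 AP-1 target genes had 5 and 12 against 36 and 36, a ratio of 4.24, with 9 of 15 higher. VEGFA, the vascular growth factor, had 0 and 1 against 7 and 7, and CCND1, the cyclin D1 gene, 3 and 3 against 7 and 6. In lists of equal length 1 of the 12 immediate early genes, ZFP36, and 2 of the 15 target genes, CCND1 among them, had more peaks in each TKO library. The totals were then 6 and 7 against 4 and 6 for the immediate early genes, so that the direction turned, and 5 and 6 against 12 and 8 for the target genes. Per gene and with the whole lists, the AP-1 factor genes had 3.67 and 4.22 peaks in TKO, above the 4 lists, whose means ran up to 2.83, and above the 1.09 and 1.08 of all protein-coding genes. These means share their libraries and were not tested against each other. At equal list length the 9 AP-1 factor genes held 6 and 7 peaks in TKO, against 12 and 8 at the 15 target genes. Per gene the target genes were then ahead in TKO replicate 1.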

How the data were processed

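The authors aligned 50-cycle single reads to hg19 with Novoalign 3.08.02 and called Myc peaks in each library with MACS2 2.1.1.20160309 against input, per the submitters' processing notes and the methods. How duplicate reads were handled is not given in the sources used here. Each deposited list holds the position and summit of a peak, the authors' fold (the ratio of reads at the summit to those of the input nearby), its −log10 p-value and −log10 q-value, and a deposited score made from the −log10 q-value. The lists held 3720, 5719, 27213 and 25887 peaks. The state of the knockout cannot be read from them, and the 2 inputs were not analysed here.

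Summit reads and local background were solved from fold and −log10 p. In each list 100% of peaks had a whole number of reads that gave the listed −log10 p to within 0.002, against 9.8% to 14.2% of 500 peaks at 0.9 times the fitted scale. Depth followed from the lowest background, the narrowest peak as extension length and a genome of 2700000000 bases, which is an assumption. RPM is summit reads for each M reads of depth. These steps were tested on simulated data.

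Summits within 10 kb of the 55869 start sites of basic protein-coding transcripts (GENCODE v44 lifted to GRCh37) were given to each such gene, so a peak can count for several genes. Peaks that overlapped by at least 1 bp in any library were merged into a site, and the peak of highest fold stood for the site in each library. Motifs were searched on both strands within 50 bp of the summit. Groups and replicates were taken from the sample titles and compared by exact two-sided permutation of library values; 2 libraries against 2 cannot go below p = 0.333. Genes and peaks are not replicates. The 9 genes, the other lists and the alternatives were chosen with earlier results of these data known, so no list was tested. Every peak at the 9 genes was counted, and from each other list the 3 genes with the most TKO peaks were named. The sequences printed are from peaks with a motif and leading peaks, with no more than a motif and 10 bases on either side shown in untranslated regions. A gene and some stretches that these rules would name are not reported here. The work was done in Python 3.11.15 with scipy 1.17.1 for tests, pysam 0.24.0 and samtools 1.23.1 for sequences, and numpy 2.4.6 and pandas 2.3.3.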

Additional observations from a re-analysis of the deposited data

How the results depend on the processing

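The ratio of peak numbers at the AP-1 factor genes stayed above 1 under all 13 alternatives, from 1.44 at equal list length to 8.88 without parental replicate 2, and ran from 7.10 to 8.88 with each library left out. The ratio of summit reads used the sites called in every library kept, so its sites changed with the setting. There were 3 in the main run, 1 at a fold of at least 5 and 8 with a window of 50 kb. Without parental replicate 1 there were 4, and without parental replicate 2 also 4, as a FOSL1 site called in 1 parental library entered. The ratio of summit reads ran from 1.36 at the shortest extension to 2.08 without parental replicate 2. With each library left out it ran from 1.63 to 2.08. With the replicate number as a block these ratios were 7.92 and 1.79. The libraries of the same number did not deviate together (r = 0.0105 over 2631 shared sites, a description), so the pairing is by number alone. The count of genes with a peak in both TKO and no parental library was 5, fell to 3 with a window of 50 kb and to 1 at equal list length, and was 5 to 6 with each library left out (FOS entered without TKO replicate 1). The count of genes with more peaks in each TKO library was 7, fell to 1 at equal list length, and was 7 to 9 with each library left out. The difference in peak number turned at JUNB and FOSL2 at equal list length, to -0.5 peaks at each.

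The AP-1 share of TKO member peaks, a mean of 5.66%, was 3.85%, 1.92% and 9.77% with windows of 1, 5 and 50 kb, 1.85% for peaks nearest to the gene, 8.10% at a fold of at least 5, 8.33% at equal list length, 9.81% within 100 bp of the summit and 17.0% in the whole peak. The E-box share, a mean of 11.1%, was 21.5%, 14.4% and 5.97% with those windows, 22.6% at equal list length, 19.8% within 100 bp and 25.3% in the whole peak. Leaving out a library gave 5.26% to 6.06% and 9.09% to 13.2%. The part of list length in these results was not tested. The number of peaks limits these shares, and the lists give no value where no peak was called.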
